A study of Mus musculus with 18 samples.

Results

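The collagen genes described here are the 43 rows of the count table whose symbol has the form Col, a type number, a and a chain number. They are 43 of 23337 gene symbols and cover 26 collagen types. By type, 9 are fibrillar (types 1, 2, 3, 5 and 11), 8 belong to basement membrane collagens (types 4, 15 and 18) and 26 to other types. All 43 passed the low-count filter of the fit used below.

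Collagens are triple-helical proteins of the extracellular matrix, each assembled from 3 α chains that are hydroxylated, folded and secreted before they are trimmed and cross-linked outside the cell. Fibrillar collagens form the tensile fibres of the vessel wall and of the fibrous cap of atherosclerotic plaques, and basement membrane collagens form the sheets under endothelium and around smooth muscle cells. In arteries they are made mainly by smooth muscle cells and fibroblasts, whereas the cells sorted here carry CD45, a surface marker of immune cells.

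Live cells, positive for CD45 and negative for the dead-cell dye 7AAD, were sorted from enzyme-treated aortas and carotids of Apoe-/- Cx3cr1GFP Cd11cYFP mice of both sexes on C57BL/6. The mice were 7 months old and had received Western Diet for 5 months, so that all groups share the Apoe deficiency, both reporters and the diet. Apoe-/- mice develop atherosclerotic plaques, Cx3cr1GFP marks cells that use the promoter of the chemokine receptor gene Cx3cr1, and Cd11cYFP marks cells that use the promoter of Itgax, which encodes CD11c. The 4 sorted subsets were GFP (GFP-positive, YFP-negative, n = 6), DP (positive for both, n = 4), YFP (GFP-negative, YFP-positive, n = 5) and DN (negative for both, n = 3), and the labels do not say whether replicates were separate mice or pools, so that the p-values rest on the spread among libraries, which may be technical.

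Libraries held 289166 (YFP replicate 6) to 27742113 gene counts, and the other 17 held at least 9790946. Ptprc, which encodes CD45, was at 439 to 1248 CPM (counts relative to the TMM-scaled library size) in all 18 libraries. TMM scaling took DP replicate 5 from 17601365 counts to a size of 9374776 and YFP replicate 5 from 22549117 to 10028367. It took YFP replicate 1 from 27742113 to 40848652 and DN replicate 1 from 24723544 to 43244502. Shares of gene counts below are of unscaled totals. In 5 libraries the reporter genes went against the labels, clearly so in 4. Cx3cr1 was at 9.43 and 0.427 CPM and Itgax at 38.6 and 47.8 CPM in the libraries labelled DP replicates 4 and 5, the lowest Itgax levels of the DP libraries. In the libraries labelled DN replicates 3 and 6 Cx3cr1 was at 142 and 134 CPM and Itgax at 332 and 297 CPM, against 4.09 and 11.4 CPM in DN replicate 1. GFP libraries held Cx3cr1 at 80.9 to 165 CPM and Itgax at 107 to 191 CPM. In the shallow library labelled YFP replicate 6, Cx3cr1 was at 104 CPM, within the GFP range, and Itgax at 89.6 CPM, below it, so that both genes went against its label as well. YFP replicates 3 and 4 held Cx3cr1 at 60.7 CPM or just below, with Itgax at 380 and 499 CPM. YFP replicate 5 held them at 26.3 and 1120 CPM. In YFP replicate 1 Cx3cr1 was at 0.930 CPM, but Itgax, at 175 CPM, lay within the GFP range and did not set this library apart from GFP. Counts, medians and called genes are given with and without the first 4 libraries, and, as a set chosen after seeing the data, without these 5.

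To show the sequence at the start of the most abundant genes, the 250 bases before the start of 2 fibrillar genes with high levels and, for contrast, of Col11a2, a fibrillar gene at a low level, are printed from RefSeq (GRCm38.p6). RefSeq and GENCODE vM21, which gives the gene positions below, place the start of Col3a1 at the same base but differ for the other two. Col1a2 starts at 4505618 in RefSeq and 4504814 in GENCODE, so that its window lies inside the GENCODE gene, and Col11a2 at 34039138 and 34039437. Capitals mark 3 short motifs on either strand, the box CCAAT, the motif TATAAA known as the TATA box, and the motif GGGCGG known as the GC box, each also read as its reverse complement, and none of them is part of another. All 3 genes lie on the plus strand, with Col1a2 at chr6:4505368-4505617, Col3a1 at chr1:45311288-45311537 and Col11a2 at chr17:34038888-34039137.
Col1a2: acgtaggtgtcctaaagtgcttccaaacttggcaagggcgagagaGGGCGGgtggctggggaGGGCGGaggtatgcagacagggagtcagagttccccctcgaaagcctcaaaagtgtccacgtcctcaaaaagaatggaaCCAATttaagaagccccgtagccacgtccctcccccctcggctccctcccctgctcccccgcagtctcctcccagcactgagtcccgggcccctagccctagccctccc
Col3a1: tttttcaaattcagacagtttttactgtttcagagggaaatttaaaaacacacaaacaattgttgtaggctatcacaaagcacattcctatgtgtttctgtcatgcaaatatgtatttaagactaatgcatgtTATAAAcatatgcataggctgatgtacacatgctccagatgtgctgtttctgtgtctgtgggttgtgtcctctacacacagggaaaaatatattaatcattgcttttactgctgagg
Col11a2: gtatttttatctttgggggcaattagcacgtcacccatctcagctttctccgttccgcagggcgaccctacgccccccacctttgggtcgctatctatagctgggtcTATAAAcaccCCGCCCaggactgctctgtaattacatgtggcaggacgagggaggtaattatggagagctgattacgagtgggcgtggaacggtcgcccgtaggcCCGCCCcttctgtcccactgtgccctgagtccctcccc
The Col1a2 window held 1 CCAAT box and 2 GC boxes, and that of Col3a1 held 1 TATA motif. The Col11a2 window held 1 TATA motif and 2 GC boxes. RefSeq windows were matched for 35 of the 43 genes (38 windows). CCAAT was in 34.2% of the collagen windows and 33.9% of all 32851 windows of this length, TATAAA in 13.2% and 12.4%, and GGGCGG in 57.9% and 32.7%. These matches are a description of letters and do not show that a factor binds.

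Collagen genes took a small share of all gene counts, and the mean share was lowest in the GFP libraries. In GFP it ran from 0.0183% through a median of 0.0728% to 0.0974% (mean 0.0630% ± 0.0337, SD, n = 6). In DP replicates 1, 2, 4 and 5 it was 0.462%, 0.163%, 1.01% and 0.0284% (mean 0.416% ± 0.436, SD, n = 4). In YFP replicates 1, 3, 4, 5 and 6 it was 1.35%, 0.185%, 0.236%, 0.00688% and 0.0979% (mean 0.375% ± 0.552, SD, n = 5). In DN replicates 1, 3 and 6 it was 0.329%, 0.395% and 0.173% (mean 0.299% ± 0.114, SD, n = 3). All DN libraries lay above all GFP libraries, whereas DP replicate 5 and YFP replicate 5 lay within or below the GFP range. YFP replicate 1 and DP replicate 4 had the highest shares of the 18. The 95% Wilson interval of a share, which covers counting error only, extended by 0.318% to 4.98% of the share in 17 libraries and by 11.7% in YFP replicate 6, less than the spread within any subset. In bulk samples, fewer cells of a type and less RNA per cell cannot be told apart.

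Libraries that carry the same replicate number were also set side by side. The collagen share was above that of the same-numbered GFP library in 4 of 4 DP libraries, 4 of 5 YFP libraries and 3 of 3 DN libraries, and these comparisons share their GFP libraries. The ratios ran from 1.55 in DP replicate 5 to 16.5 in YFP replicate 1, and the exception, YFP replicate 5, was at 0.376 of GFP replicate 5.

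**Figure D1:**
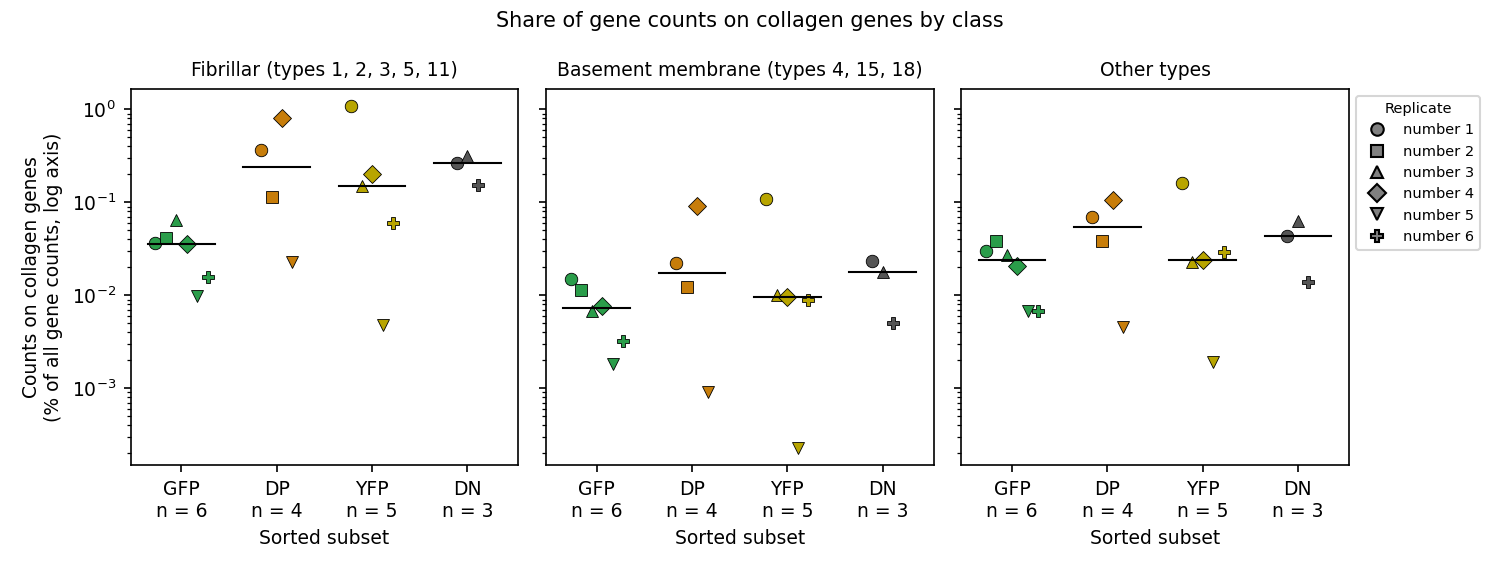
Counts on collagen genes as a percentage of all gene counts (log axis) in 18 libraries, by sorted subset, for fibrillar, basement membrane and other types. Points are libraries, their shape gives the replicate number and horizontal lines are medians; the fibrillar share of GFP libraries runs from 0.00982% to 0.0637% and that of DN libraries from 0.154% to 0.314%.

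The fibrillar class carried most of this difference. Its share was 0.0338% ± 0.0193 (SD, n = 6) in GFP, 0.330% ± 0.355 (SD, n = 4) in DP, 0.301% ± 0.445 (SD, n = 5) in YFP and 0.243% ± 0.0814 (SD, n = 3) in DN. Basement membrane genes were at 0.00764% ± 0.00494 (SD, n = 6) in GFP, 0.0315% ± 0.0403 (SD, n = 4) in DP, 0.0273% ± 0.0450 (SD, n = 5) in YFP and 0.0155% ± 0.00952 (SD, n = 3) in DN. The other types were at 0.0216% ± 0.0128 (SD, n = 6) in GFP, 0.0545% ± 0.0433 (SD, n = 4) in DP, 0.0475% ± 0.0636 (SD, n = 5) in YFP and 0.0405% ± 0.0251 (SD, n = 3) in DN. For both of these classes all 4 subsets overlapped. The fibrillar share was above the GFP range in all DN libraries. DP replicate 5 (0.0228%) and YFP replicate 6 (0.0598%) lay within that range, and YFP replicate 5 (0.00476%) lay below it. Without the 5 libraries that went against their labels the mean collagen share was 0.312% over 2 DP libraries, 0.445% over 4 YFP libraries and 0.329% in the 1 DN library, and the basement membrane share of DP was 0.0173%.

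Type III collagen, a homotrimer of the Col3a1 chain found in the distensible fibres of arteries, had the highest mean of all collagen genes in every subset, also per kilobase of transcript. Col3a1 (chromosome 1, 45311538 to 45349706 in mm10) ran from 58.6 through a median of 120 to 346 CPM in GFP. It was at 1717, 399, 3552 and 61.8 CPM in DP replicates 1, 2, 4 and 5, and at 3005, 908, 1268, 10.2 and 209 CPM in YFP replicates 1, 3, 4, 5 and 6. The 3 DN libraries, at 690, 2085 and 1091 CPM, and all DP libraries but replicate 5 lay above all GFP libraries. YFP replicates 5 and 6 did not. The difference on the log2 scale was 3.12 ± 0.92 (SE) for DP versus GFP (adjusted p = 0.166 by edgeR's quasi-likelihood test with Benjamini-Hochberg adjustment) and 2.71 ± 0.88 for YFP versus GFP (adjusted p = 0.415).

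Type I collagen, the main fibre protein of the artery wall, is built from chains of Col1a1 (chromosome 11, 94936224 to 94953042) and Col1a2 (chromosome 6, 4504814 to 4541544). Col1a2 ran from 21.6 through 77.2 to 146 CPM in GFP, was at 685, 210, 1599 and 321 CPM in the DP libraries in the same order, at 1867, 315, 457, 88.9 and 131 CPM in YFP and at 358, 613 and 278 CPM in DN. Every DP and DN library exceeded every GFP library, and YFP replicates 5 and 6 lay within the GFP range. The log2 difference for DP versus GFP, 3.27 ± 0.72, had the smallest adjusted p of any collagen gene in the 6 comparisons, 0.0549 (edgeR, Benjamini-Hochberg), just outside the threshold of 0.05. For YFP versus GFP it was 2.97 ± 0.69 (adjusted p = 0.126). The smallest edgeR adjusted p of any collagen gene for DP versus GFP depended on the setting. It was 0.0400 with RLE scaling and 0.0338 without the low-count filter. With replicate number as a block it was 0.929, and without the 4 libraries that went against their labels it was 0.99998. Col1a1 ran from 13.5 through 63.1 to 108 CPM in GFP, was at 773, 232, 1231 and 38.3 CPM in DP, at 2125, 295, 447, 3.79 and 128 CPM in YFP and at 371, 463 and 365 CPM in DN. DP replicate 5 and YFP replicate 5 were the libraries that fell within or under the GFP range. The log2 differences of Col1a1 were 3.24 ± 0.92 for DP versus GFP (adjusted p = 0.145) and 3.32 ± 0.90 for YFP versus GFP (adjusted p = 0.250).

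Type V collagen, which is incorporated into type I fibrils and limits their diameter, lay at lower levels. Its genes were also highest in YFP replicate 1 and DP replicate 4, but the order of the other libraries differed. Col5a1 ran from 1.30 through 5.52 to 8.67 CPM in GFP, and was at 41.5, 23.9, 81.0 and 1.39 CPM in DP, 132, 19.9, 22.5, 1.60 and 5.97 CPM in YFP and 36.9, 37.7 and 13.6 CPM in DN. Col5a2, whose gene lies 24.6 kilobases from Col3a1 on chromosome 1, ran from 0.272 through 7.35 to 14.4 CPM in GFP, and was at 36.4, 16.4, 98.8 and 1.17 CPM in DP, 190, 23.7, 26.1, 0.997 and 8.96 CPM in YFP and 24.7, 41.0 and 10.9 CPM in DN. The DN libraries lay above the GFP range for Col5a1 but not for Col5a2, and DP replicate 5 was low for both. The log2 differences for DP versus GFP were 2.77 ± 0.91 for Col5a1 and 2.49 ± 1.02 for Col5a2, and for YFP versus GFP 2.78 ± 0.89 and 2.90 ± 0.997, with adjusted p (edgeR) of 0.279 to 0.537.

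The cartilage-type fibrillar genes behaved apart from this group, and they are named here after their values were seen. Col11a2 stayed between 5.18 and 10.9 CPM in 15 of the libraries, GFP included, and was at 0.415 and 1.71 CPM in DP replicates 4 and 5 and 0.798 CPM in YFP replicate 5. Col2a1, the main collagen of cartilage, reached 17.0 CPM in GFP replicate 3 and 35.3 CPM in YFP replicate 4 and was at 2.99 CPM or below in the other libraries. In those 2 libraries the chondrocyte-like markers summed to 33.7 and 48.6 CPM, within the range of 1.396 to 119 CPM of all libraries. The sum of GFP replicate 3 was the highest of the GFP libraries, where the others were at 6.65 to 15.2 CPM. Single markers differed. Chad was at 13.8 CPM in GFP replicate 3, the highest of all libraries, and 0.189 CPM in YFP replicate 4. Sox9 was at 3.21 and 7.18 CPM, and Acan, which encodes the cartilage proteoglycan, was at 0.385 and 0.882 CPM. Col11a1 was at 1.16 CPM or below except in YFP replicate 6, where 4 counts gave 11.9 CPM.

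**Figure D2:**
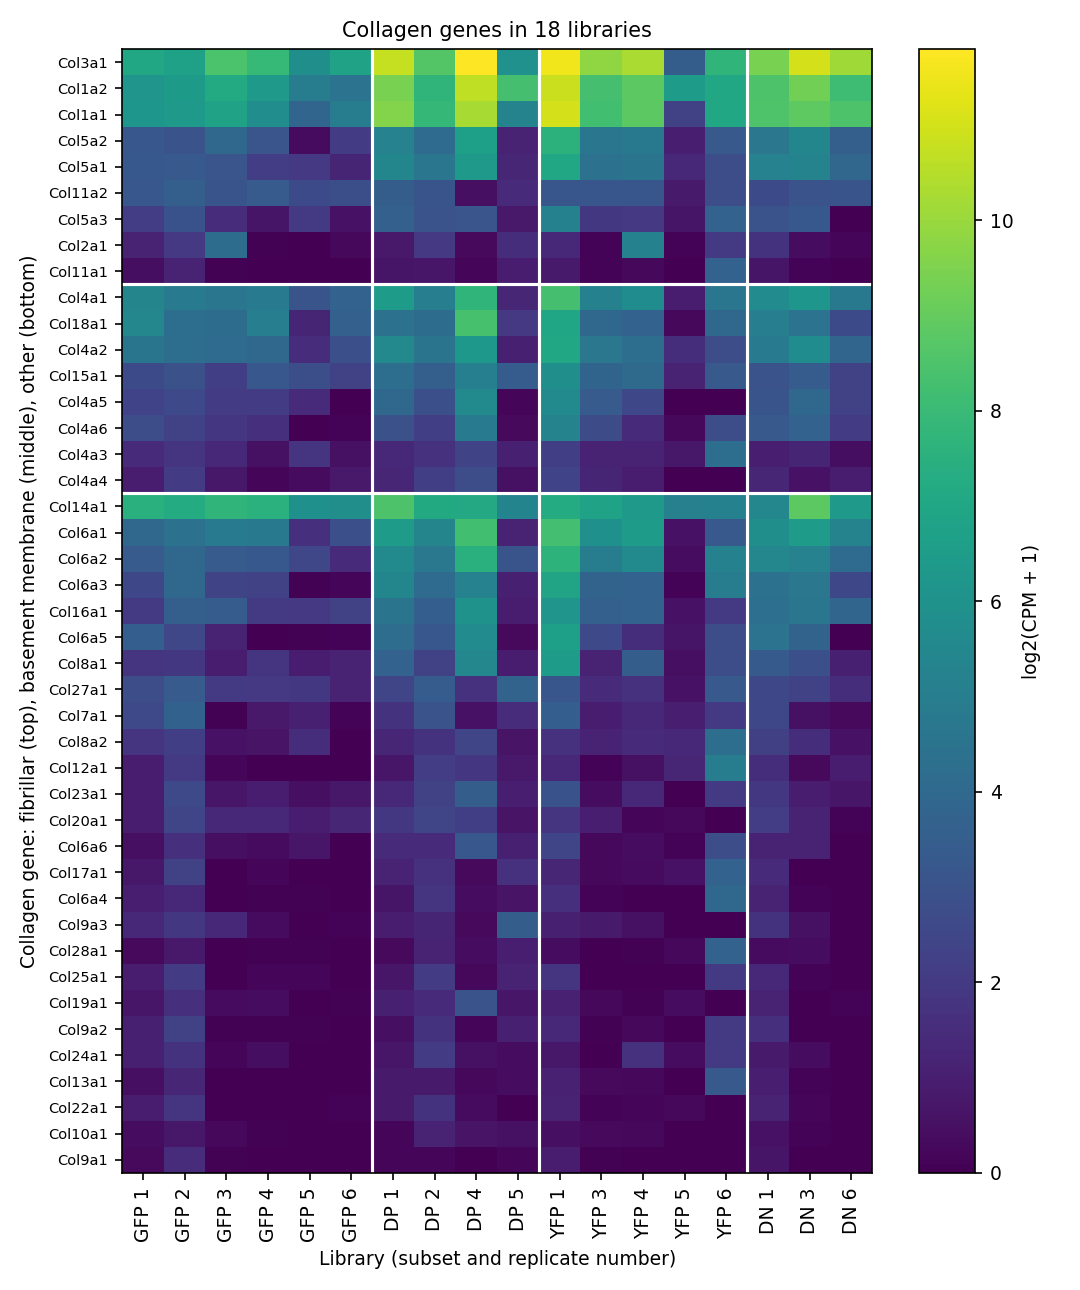
Level of each collagen gene as log2(CPM + 1) in the 18 libraries, ordered by subset from GFP to DN and by class from fibrillar (top) to basement membrane and other types (bottom). The most abundant fibrillar genes are brightest in YFP replicate 1 and DP replicate 4, and nearly all genes are dim in YFP replicate 5.

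Basement membrane genes were also lower in GFP than in DP and YFP on average, but for most of them the libraries overlapped. Col4a1 and Col4a2 encode the chains of the ubiquitous type IV network and start 22 bases into one another on opposite strands of chromosome 8. Col4a1 ran from 7.24 through 25.3 to 40.3 CPM in GFP, and was at 88.8, 32.2, 212 and 1.39 CPM in DP, 319, 35.4, 51.8, 0.897 and 23.9 CPM in YFP and 50.3, 73.4 and 26.0 CPM in DN. Col4a2 ran from 1.85 through 15.5 to 22.6 CPM in GFP, and was at 45.5, 22.5, 77.5 and 1.07 CPM in DP, 133, 24.3, 18.3, 1.89 and 5.97 CPM in YFP and 27.2, 52.9 and 13.3 CPM in DN. For both chains YFP replicate 1 was highest, DP replicate 5 was below every GFP library and the subsets overlapped. The log2 differences were 1.86 ± 0.94 and 1.45 ± 0.91 for DP versus GFP, and 1.92 ± 0.91 and 1.48 ± 0.87 for YFP versus GFP (edgeR adjusted p of 0.706 to 0.964). Without YFP replicate 1 the Col4a2 difference for YFP versus GFP was -0.13.

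Type IV networks of specialised membranes use other chains, which lay lower. Col4a5 and Col4a6, a divergent pair 1308 bases apart on the X chromosome, had subset means of 0.440 and 0.367 CPM per kilobase in GFP and 2.62 and 1.43 CPM per kilobase in DP. Col4a3 and Col4a4, whose starts are 71 bases apart on chromosome 1, were at 0.175 and 0.0995 CPM per kilobase in GFP, against 3.48 and 2.08 CPM per kilobase for Col4a1 and Col4a2.

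Col15a1 and Col18a1 encode the multiplexin collagens, which carry an endostatin-type domain and sit at basement membranes. Col15a1 ran from 3.53 through 5.70 to 8.09 CPM in GFP, and was at 18.1, 10.7, 32.7 and 9.92 CPM in DP, 57.5, 13.0, 16.1, 1.20 and 8.96 CPM in YFP and 7.10, 9.90 and 4.04 CPM in DN. In CPM all DP libraries lay above all GFP libraries, DP replicate 5 included, and above all DN libraries. For DP replicate 5 this rests on the TMM scaling. It held 93 Col15a1 counts among 17601365, against 95 among 11066213 in GFP replicate 2 and 135 among 14165687 in DN replicate 3. Per total gene count it lay below both. The log2 difference was 1.68 ± 0.72 for DP versus GFP (edgeR adjusted p = 0.600) and 1.82 ± 0.70 for YFP versus GFP (adjusted p = 0.584). Col18a1 ran from 1.31 through 17.6 to 43.4 CPM in GFP, and was at 20.5, 16.9, 323 and 2.88 CPM in DP, 125, 14.6, 12.0, 0.199 and 14.9 CPM in YFP and 31.5, 21.3 and 5.28 CPM in DN. Only DP replicate 4 and YFP replicate 1 lay above the GFP range. Its log2 difference for DP versus GFP, 2.15 ± 1.08 (edgeR adjusted p = 0.774), was -0.61 without DP replicate 4. For YFP versus GFP it was 0.73 ± 1.02 (edgeR adjusted p = 0.977) and -1.14 without YFP replicate 1.

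Among the other types, type VI collagen, which forms beaded filaments around cells, followed the fibrillar genes. Col6a1 ran from 2.12 through 17.7 to 27.4 CPM in GFP, and was at 90.8, 40.9, 301 and 1.17 CPM in DP, 307, 58.6, 89.0, 0.499 and 8.96 CPM in YFP and 58.2, 86.6 and 37.3 CPM in DN. Col6a2, on the same strand of chromosome 10, ran from 1.71 through 8.86 to 14.5 CPM in GFP, and was at 49.6, 25.5, 177 and 7.25 CPM in DP, 195, 30.7, 47.3, 0.299 and 35.8 CPM in YFP and 42.8, 37.0 and 16.2 CPM in DN. Both were above the GFP range in all 3 DN libraries and in every DP library but replicate 5. Col6a3, whose chain completes the main type VI trimer, ran from 0.0544 through 4.10 to 14.6 CPM in GFP, and was at 41.1, 16.7, 36.6 and 1.07 CPM in DP, 118, 12.5, 12.0, 0.0997 and 29.9 CPM in YFP and 20.6, 24.6 and 4.92 CPM in DN. The log2 differences of Col6a1, Col6a2 and Col6a3 were 2.74 ± 1.04, 3.02 ± 0.92 and 2.36 ± 1.14 for DP versus GFP, and 2.53 ± 1.0, 2.96 ± 0.89 and 2.90 ± 1.13 for YFP versus GFP (edgeR adjusted p of 0.194 to 0.723).

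Col16a1 and Col14a1 encode collagens that sit on or between fibrils. Col16a1 ran from 2.83 through 3.45 to 11.0 CPM in GFP, and was at 22.3, 10.5, 65.0 and 0.853 CPM in DP, 70.4, 11.3, 12.0, 0.499 and 2.99 CPM in YFP and 18.7, 23.7 and 13.5 CPM in DN. The DN libraries lay above the GFP range, and the log2 differences were 2.14 ± 0.93 for DP versus GFP (edgeR adjusted p = 0.622) and 1.84 ± 0.89 for YFP versus GFP (adjusted p = 0.711).

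Of the 14 genes described by library, 12 had their lowest subset mean in GFP. Col18a1, with means of 20.5 CPM in GFP and 19.4 CPM in DN, did not. Col14a1, which binds decorin on fibril surfaces, had another order as well. It ran from 56.3 through 167 to 212 CPM in GFP, and was at 358, 143, 138 and 38.9 CPM in DP, 154, 112, 83.5, 34.0 and 35.8 CPM in YFP and 43.6, 458 and 81.8 CPM in DN. DN replicate 3 and DP replicate 1 were highest, and of the other 10 libraries outside GFP 6 lay within the GFP range and 4 below it. The log2 difference was 0.27 ± 0.65 for DP versus GFP (edgeR adjusted p = 1.0) and -0.73 ± 0.62 for YFP versus GFP (adjusted p = 0.974), and without DP replicate 1 the former was -0.40.

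Ordered by mean CPM per kilobase of transcript, GFP libraries held Col3a1 (29.7) and Col14a1 (24.7) at the top, followed by Col1a2 (13.6) and Col1a1 (10.2), and the libraries of neighbouring genes in this order overlapped. In DP, Col3a1 (257), Col1a2 (132) and Col1a1 (95.9) stood ahead of Col14a1 (29.8). In DN the same 3 genes, at 232, 77.9 and 67.4 CPM per kilobase, again preceded Col14a1 (34.3), and in YFP Col14a1 (14.8) also came after Col6a1 (22.6) and Col6a2 (15.7).

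The make-up of the collagen counts differed accordingly. Fibrillar genes supplied 44.7% to 65.4% of collagen counts in GFP, 69.2% to 80.5% in DP, 61.1% to 85.8% in YFP and 79.4% to 89.1% in DN, so that GFP did not overlap with DP or DN. Col14a1 alone supplied 20.0% to 27.8% of collagen counts in the GFP libraries and 22.0% in YFP replicate 5, and 1.68% to 11.2% in the other 11 libraries. Shares of 1 total are tied to one another, so that a higher share of one gene lowers the rest.

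**Figure D3:**
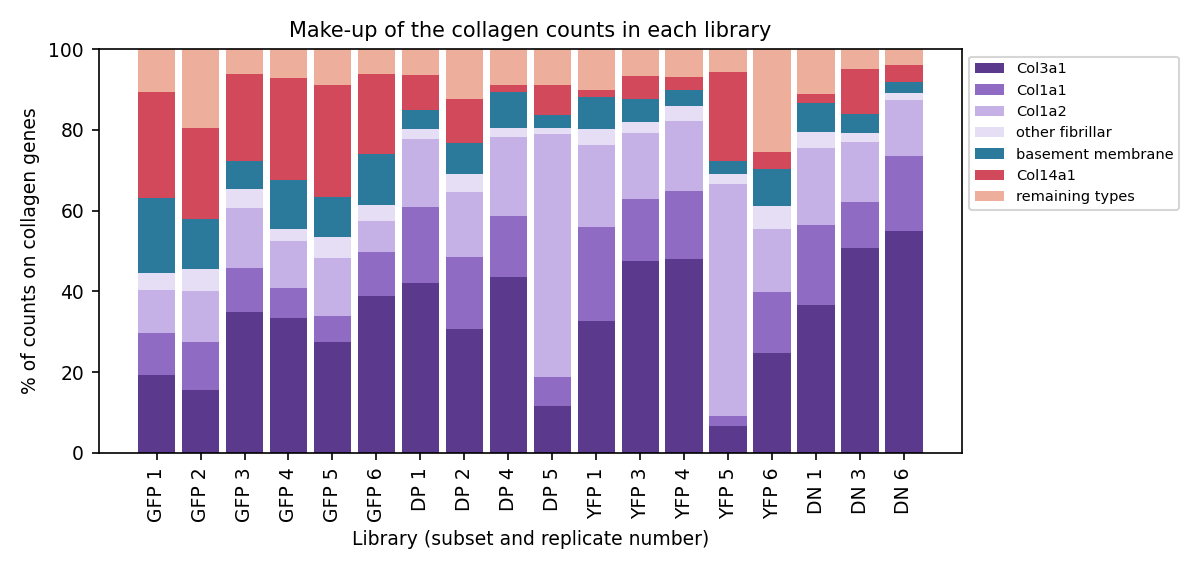
Make-up of the counts on collagen genes in each of the 18 libraries, as stacked percentages that sum to 100%. Col14a1 takes 20.0% to 27.8% in the 6 GFP libraries, and Col1a2 takes the largest part in DP replicate 5 and YFP replicate 5.

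Most remaining genes were near the detection limit. Of the 43 genes, 16 were under 1 CPM in over 9 of the 18 libraries, among them Col9a1, Col10a1, Col13a1, Col22a1 and Col28a1. All 43 had a count in GFP replicates 1 and 2, DP replicates 1 and 2, YFP replicate 1 and DN replicate 1, and 28 to 42 had one in the other 12. Of the 43, 16 were highest in YFP replicate 1, 8 in YFP replicate 6 and 6 each in DP replicate 4 and GFP replicate 2. The 8 in YFP replicate 6 rest on 3 to 10 counts each. Among the 14 genes described by library, 11 were highest in YFP replicate 1, 2 in DP replicate 4 and 1 in DN replicate 3.

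Tested on the whole table of 17143 genes, no collagen gene passed an adjusted p of 0.05 in any of the 6 comparisons by edgeR's quasi-likelihood test. For DP versus GFP 0 of 43 were called, where 0.198% of all genes were, and 12 of 43 were higher at an unadjusted p under 0.05 (6.66% of all genes). DESeq2 called 4 genes (Col1a1, Col1a2, Col3a1 and Col6a2), where it called 1.8% of all genes, and limma voom with sample weights called 28, where it called 20.1% of all genes. Of the 43, 39 had a log2 fold change above 0, as did 59.4% of all genes. The median was 1.51 over the collagen genes and 0.20 over all genes, with 2.49 for fibrillar, 1.77 for basement membrane and 1.34 for other types. In CPM Col1a2 and Col15a1 had no overlap between the subsets, 2 of 43 where 0.548% of all genes were higher without overlap. For Col15a1 this rests on the TMM scaling of DP replicate 5. Without the 4 libraries that went against their labels edgeR called 0 collagen genes with a median of 1.52, where that of all genes was 0.34, and DP replicates 1 and 2 alone still lay above all GFP libraries for Col1a1, Col1a2 and Col3a1. Leaving out YFP replicate 6 as well gave 0 calls and medians of 1.42 and 0.14.

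For YFP versus GFP 0 of 43 were called by edgeR (0% of all genes), 5 by DESeq2 (0.951%) and 6 by voom (2.69%), and 11 were higher at an unadjusted p under 0.05 (6.59% of all genes). Of the 43, 34 had a log2 fold change above 0 (51.7% of all genes). The median was 1.55 over the collagen genes and 0.04 over all genes, with 2.73 for fibrillar, 1.65 for basement membrane and 0.99 for other types. Single libraries moved the collagen median, which was 0.34 without YFP replicate 1 and 0.65 without YFP replicate 6. Without the 4 libraries against their labels it was 1.68, and without the 5 it was 0.64 (-0.10 over all genes), with 0 collagen genes called and 0.283% of all genes. No gene was free of overlap, where 0.251% of all genes were higher without it. Col8a1, a short-chain collagen of the vessel wall named here after its values were seen, had a log2 difference of 3.61 ± 1.07 (edgeR adjusted p = 0.312). It was at 88.2 CPM in YFP replicate 1, 0.399 to 10.1 CPM in the other YFP libraries and 0.835 to 2.73 CPM in GFP.

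For DN versus GFP 0 of 43 were called by edgeR, DESeq2 and voom (0% of all genes by each), and 5 were higher at an unadjusted p under 0.05 (1.25% of all genes). Of the 43, 24 had a log2 fold change above 0 (45.8% of all genes). The median was 0.25, against -0.04 over all genes, with 1.91 for fibrillar, 0.72 for basement membrane and 0.01 for other types. Over all 43 genes it was -0.24 without DN replicate 1 and 1.28 without GFP replicate 2. In this comparison 7 of 43 genes (16.3%) were higher without overlap, where 0.846% of all genes were. They were Col1a1, Col1a2, Col3a1, Col5a1, Col6a1, Col6a2 and Col16a1. For Col6a2 and Col16a1 this rests on the TMM scaling. DN replicate 6 held 221 and 184 counts of them among 15643933, and GFP replicate 2 held 213 and 161 among 11066213. DN replicates 3 and 6 went against their labels, and without the 4 such libraries the median was 1.496, where that of all genes was 0.71, and without the 5 it was 1.14, where that of all genes was 0.24. DN replicate 1 alone was above the GFP range for each of these 7 genes.

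Among DP, YFP and DN no collagen gene was called by edgeR, DESeq2 or voom, and 0 had an unadjusted p under 0.05 by edgeR in either direction. The share of all genes called was 0% in each comparison by edgeR and voom, and by DESeq2 0.624% for YFP versus DP, 0.0875% for DP versus DN and 0.0583% for YFP versus DN. The shares of all genes higher at an unadjusted p under 0.05 were 3.02%, 2.5% and 1.92%.

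For YFP versus DP the median was 0.03 over the collagen genes and -0.09 over all genes, and 23 of 43 had a log2 fold change above 0 (45.6% of all genes), but with voom the collagen median was -0.78 and 7 of 43 lay above 0, and by edgeR without YFP replicate 1 these were -1.69 and 9. Without the 4 libraries the YFP versus DP median was 0.25, and without the 5 it was -0.14. For DP versus DN it was 0.84 and 0.21 over all genes, with 40 of 43 above 0 (58.9% of all genes), and without the 4 libraries that went against their labels it was -0.09, with 20 of 43 above 0. For YFP versus DN it was 0.65 and 0.06 over all genes, with 35 of 43 above 0 (52.4% of all genes), and 0.07 with 23 of 43 without those libraries. Without YFP replicate 1 that median was -0.84, with 11 of 43 above 0. In CPM Col15a1 was the 1 gene higher without overlap in DP than in DN (0.455% of all genes), which rests on the TMM scaling of DP replicate 5. No collagen gene was higher without overlap in YFP than in DP (0.367% of all genes) or DN (0.227%).

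**Figure D4:**
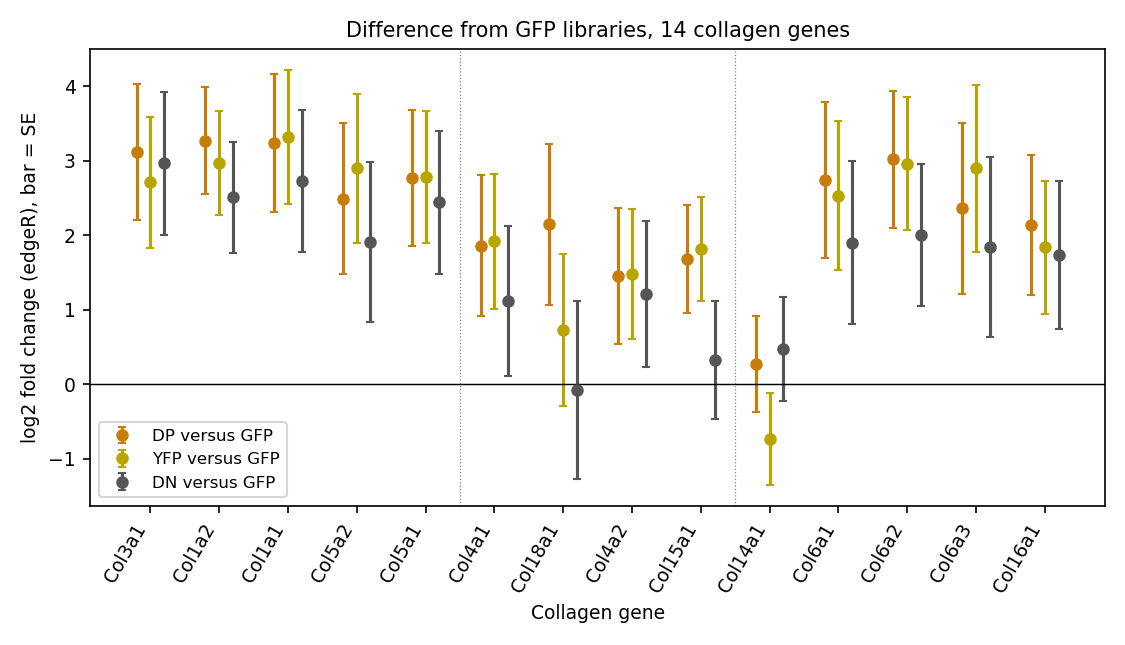
Log2 fold change (points) and its SE (bars) from the edgeR fit for 14 collagen genes in DP, YFP and DN, each against the same GFP libraries, with fibrillar genes on the left, basement membrane genes in the middle and other types on the right. Fibrillar and type VI genes lie between 1.84 and 3.32 in all 3 comparisons, and Col14a1 lies between -0.73 and 0.47; no gene passed the adjusted threshold.

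Marker lists of other cell types were read beside the collagens. The 12 fibroblast markers, none of them a collagen, were all higher in DP, YFP and DN than in GFP, with median log2 differences of 2.99, 2.65 and 1.98. Of all genes, 59.4%, 51.7% and 45.8% were higher in these 3 comparisons, which also applies to the lists below. Summed, they were at 114 to 601 CPM in GFP, 567 to 6831 CPM in DP, 493 to 5018 CPM in YFP and 973 to 1550 CPM in DN, and no marker was at 0 in all libraries of a subset. For DP versus GFP, 3 of the 12 rose by edgeR (adjusted p = 0.0361 each), namely Dcn, Mfap5 and Pcolce, where 0.198% of all genes were called. Their size rests on the libraries labelled DP replicates 4 and 5. Dcn was at 404, 226, 3674 and 4439 CPM in DP replicates 1, 2, 4 and 5 and at 39.5 to 264 CPM in GFP, and its DP mean was 2186 CPM with replicates 4 and 5 and 315 CPM without them. Mfap5 was at 15.8, 10.4, 78.4 and 140 CPM in the same order. Without the 4 libraries against their labels none of the 12 was called, with log2 differences of 1.46 for Dcn, 1.94 for Mfap5 and 2.11 for Pcolce (edgeR adjusted p = 1.0 each), and the median of the 12, all still higher, was 1.91. None of the 3 was called when any one GFP library, DP replicate 4 or DP replicate 5 was left out, or with the replicate block (edgeR adjusted p = 0.929 each), and each was called in the other 10 sets that leave out 1 library (adjusted p of 0.00693 to 0.244 over the 18). The 10 smooth muscle markers summed to 2392 and 2860 CPM in DP replicates 4 and 5 and to 79.5 to 587 CPM in the other libraries. For DP versus GFP 10 of 10 were higher with a median of 2.01, or 7 of 10 with 0.18 without the 4 libraries. For YFP versus GFP 9 of 10 were higher with a median of 0.45, and for DN versus GFP 3 of 10 with -0.17. DP replicate 5, with fibroblast markers at 6308 CPM, had a collagen share within the GFP range. This also held relative to the TMM-scaled size, at 0.0533% against 0.0213% to 0.0991% in GFP. The 10 endothelial markers summed to 21.6 to 56.4 CPM in GFP, and the highest sums were 281 CPM in YFP replicate 1, 207 CPM in DP replicate 4 and 202 CPM in YFP replicate 5, of which the first 2 had the highest collagen shares and the third the lowest. For DP versus GFP 10 of 10 endothelial markers were higher with a median of 1.25, for YFP versus GFP 8 of 10 with 1.87, of which 4 had an unadjusted p under 0.05 (6.59% of all genes), and for DN versus GFP 3 of 10 with -0.34. None of the smooth muscle or endothelial markers was called by edgeR in these comparisons with all libraries. Without YFP replicate 1 the endothelial median for YFP versus GFP was 0.76. The 8 immune markers summed to 3574 to 21519 CPM, lowest in YFP replicate 1 and DN replicate 1 and highest in YFP replicate 5 and DP replicate 5. The scaled size was above the total gene count in the former pair and below it in the latter, so that part of this range is scaling. Per total gene count DP replicate 4 lay below DN replicate 1. The part of other cells in the collagen counts was not tested.

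Genes that fold, process, bind and cleave collagen were read by step. Serpinh1, the collagen chaperone, was at 30.2 ± 16.1 CPM in GFP (SD, n = 6) and 241 ± 291 CPM in DP (SD, n = 4), a log2 difference of 2.998 ± 0.71 (edgeR adjusted p = 0.0704). It was at 152, 83.2, 673 and 56.7 CPM in DP replicates 1, 2, 4 and 5, and the log2 difference was 2.15 without the 4 libraries against their labels (edgeR adjusted p = 1.0). Of 10 genes of folding and secretion 0 were called in DP versus GFP (0.198% of all genes) and 4 were higher at an unadjusted p under 0.05 (6.66% of all genes). Ctage5, an export factor, was at 105 ± 27.5 CPM in GFP and 97.8 ± 59.6 CPM in DP. Of 14 genes of chain hydroxylation and glycosylation 0 were called and 3 were higher at an unadjusted p under 0.05, against the same shares of all genes. P4hb, the shared subunit of prolyl hydroxylase, was at 535 ± 137 CPM in GFP and 432 ± 247 CPM in DP, and the galactosyltransferase gene Glt25d1 was at 213 ± 31.1 and 165 ± 117 CPM.

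Outside the cell, procollagen is trimmed, and 1 of 8 genes of this step rose in DP versus GFP, where 0.198% of all genes were called. Pcolce, the enhancer of C-propeptide removal, was at 12.8 ± 6.61 CPM in GFP and 210 ± 195 CPM in DP (log2 difference 4.04 ± 0.69, edgeR adjusted p = 0.0361). It was at 61.8, 31.6, 317 and 431 CPM in DP replicates 1, 2, 4 and 5, so that every DP library lay above the GFP range, and at a mean of 46.7 CPM without replicates 4 and 5. Adamts2, the N-propeptidase, had a log2 difference of 2.89 ± 1.03 (edgeR adjusted p = 0.365). Of 11 genes of fibril assembly 2 rose, Dcn (3.98 ± 0.74, edgeR adjusted p = 0.0361) and Sparc (2.98 ± 0.58, adjusted p = 0.0365). Sparc, a collagen-binding matrix protein, was at 271, 180, 950 and 260 CPM in DP replicates 1, 2, 4 and 5 and at 29.6 to 67.3 CPM in GFP, so that every DP library lay above every GFP library. Without the 4 libraries against their labels no gene of these lists was called in DP versus GFP, and the log2 difference of Sparc was 2.33 (edgeR adjusted p = 1.0). Its call was also lost with the replicate block (adjusted p = 0.929) and in the same 8 sets without 1 library as those of Dcn. Fibronectin, Fn1, was at 835 ± 251 CPM in GFP and 1008 ± 845 CPM in DP. No gene of 5 for cross-linking was called, and Loxl1 was at 7.04 ± 4.99 and 36.2 ± 23.4 CPM.

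Collagen receptors and collagenases are the genes by which macrophages bind and break down collagen. None of the 10 receptor genes tested was called in any comparison by edgeR. Mrc1, the mannose receptor that takes up collagen fragments, was at 467 ± 246 CPM in GFP (SD, n = 6), 228 ± 61.6 in DP (SD, n = 4), 210 ± 86.7 in YFP (SD, n = 5) and 234 ± 266 in DN (SD, n = 3), and Itgb1, the integrin β1 chain, was at 751 ± 226 CPM in GFP and 608 ± 237 to 739 ± 167 CPM in the others. None of the 7 cleavage genes tested was called. Ctsk, a collagen-cleaving cathepsin, was at 74.1 ± 55.0 CPM in GFP and 841 ± 702 CPM in YFP (log2 difference 3.51 ± 0.69, edgeR adjusted p = 0.0752). It was at 448, 438, 1385, 1782 and 152 CPM in YFP replicates 1, 3, 4, 5 and 6 and at 24.1 to 151 CPM in GFP, and was called at 3.77 without the 5 libraries against their labels (edgeR adjusted p = 0.0157). Mmp14 was at 271 ± 77.5 and 330 ± 87.3 CPM. Of 13 basement membrane partners 0 were called, with Lamb2 at 30.6 ± 17.2 CPM in GFP and 136 ± 198 CPM in DP and Lamc1 at 57.7 ± 27.1 and 88.4 ± 54.4 CPM. With all libraries none of these lists held a called gene in the other 5 comparisons. Without the 5 libraries against their labels, 3 genes of fibril assembly, 1 of processing, 1 of cleavage and 5 fibroblast markers were called in YFP versus GFP, where 0.283% of all genes were. The fibroblast list shares Dcn with fibril assembly and Pcolce with processing, so that these counts may hold a gene more than once.

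The libraries numbered 5 stood apart within the collagens. Col1a1 counts per Col1a2 count were 0.119 in DP replicate 5 and 0.0426 in YFP replicate 5, and 0.445 to 1.43 in the other 16 libraries, with GFP replicate 5 at the lower end. DP replicate 5 had the highest TMM-scaled Dcn level of all libraries, 4439 CPM. Per total gene count, Dcn was higher in DP replicate 4 and YFP replicate 1. DP replicate 5 held only 0.00863 Col1a1 counts per Dcn count, against 0.0108 in YFP replicate 5 and 0.0881 to 1.92 in the other 16 libraries. Collagen transcripts are long, and counts on other protein-coding genes over 5000 bases were 4.56% of protein-coding counts in YFP replicate 5, 4.80% in DP replicate 5, 5.74% in GFP replicate 5 and 5.82% in DN replicate 6. In the other 14 libraries they were 7.00% to 15.1%. DN replicate 6 had a ratio of 1.32 and a collagen share of 0.173%, above all GFP libraries and the lowest of the DN libraries. It had a count for 28 collagen genes, the fewest of all libraries. The part of transcript length in these values was not tested. Without the 3 libraries numbered 5, the median collagen difference was 1.66 for DP versus GFP and 1.85 for YFP versus GFP, and edgeR called 0 collagen genes in both.

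**Figure D5:**
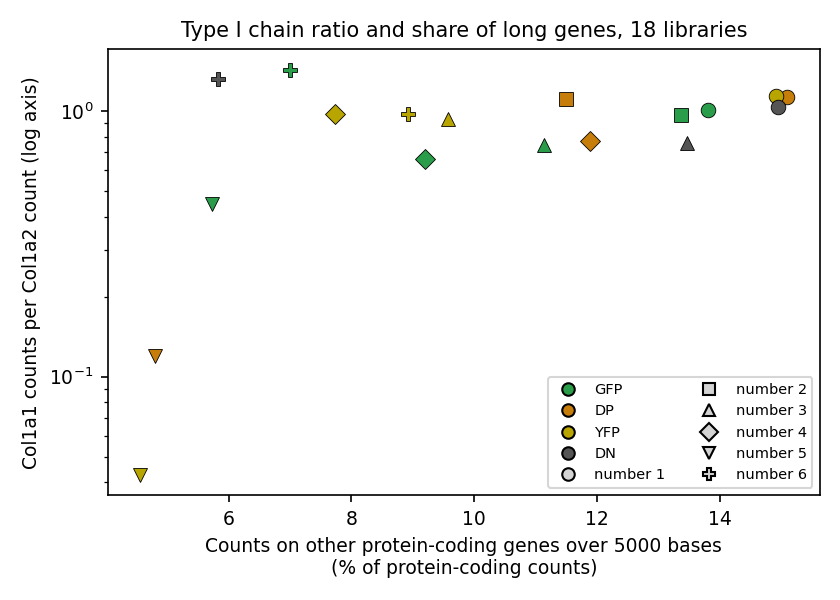
Col1a1 counts per Col1a2 count (log axis) against the share of protein-coding counts on other genes over 5000 bases, 1 point per library, coloured by subset and shaped by replicate number. YFP replicate 5 (0.0426) and DP replicate 5 (0.119) lie lowest on both axes, and the other 16 libraries lie between 0.445 and 1.43.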

How the data were processed

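RNA of 18 sorted samples was sequenced after SMART-seq v4 amplification (11 cycles) and Nextera XT preparation, per the labels' protocols. The build mm10 with TopHat 1.4.1, SAMtools and HTSeq 0.7.1 was used, per the submitters' processing notes. Annotation and strand setting are not given in the sources used here. Reads where genes overlap, as at the starts of Col4a1 and Col4a2, may therefore be mixed. The authors deposited raw counts by gene symbol in 1 table, used as it stood. The least chi-square per degree of freedom between libraries of a subset was 16.7, so each was counted once.

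Counts were fitted with edgeR 4.0.16 in R 4.3.3 (filterByExpr, TMM, robust quasi-likelihood fit, 1 mean per subset over 18 libraries), and p-values were adjusted by Benjamini-Hochberg over 17143 genes at a threshold of 0.05. The script was tested on simulated data whose dispersion (spread beyond counting error) was set below that of these data, a common dispersion of 0.89. That test checks the code and does not give the power of the fit here. DESeq2 1.42.0 and limma 3.58.1 (voom), RLE scaling, no filter, left-out libraries, sets of replicate numbers and a replicate block were alternatives. Standard errors are the log2 fold change over the root of its F value, and errors of CPM are SD. Reads carry no molecular identifiers, so Wilson intervals cover counting error only.

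Gene positions and transcript lengths are from GENCODE vM21, in which all 43 symbols matched. Genes described by library are the 5 fibrillar, 4 basement membrane and 5 other members with the highest mean CPM. Of 8 marker and 8 pathway lists, the called genes and the 2 highest genes of each pathway list are named. Members and lists were chosen with earlier results of these data known. Across genes, deviations from the subset means correlated between same-numbered libraries above 0.1 in every pair for DP and GFP (lowest 0.164), DN and GFP (0.570) and YFP and DP (0.164), a pairing taken from the data and not stated in the labels. This did not hold for YFP and GFP (lowest -0.019, replicate 6), YFP and DN (lowest -0.093, replicate 6) or DP and DN (-0.221, replicate 1).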

Additional observations from a re-analysis of the deposited data

How the results depend on the processing

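No collagen gene was called by edgeR in any comparison, and for DP versus GFP this count depended on the setting. It was 1 with RLE size factors (0.537% of all genes called), 1 without the low-count filter (0.273%), 4 with DESeq2, 28 with voom, 7 within replicate numbers 1 and 2 (1.33% of all genes called), 1 within numbers 3 to 6 (1.33%), and 0 to 4 when single libraries were left out, with calls without DP replicate 1 (1), DP replicate 2 (1), YFP replicate 1 (2), YFP replicate 3 (1), YFP replicate 4 (1), YFP replicate 5 (4), DN replicate 1 (1) and DN replicate 3 (1). For YFP versus GFP it was 5 with DESeq2, 6 with voom and 16 within numbers 1 and 2 (7.83% of all genes). Numbers 1 and 2 alone also gave 8 (7 higher, Col14a1 lower) for DN versus GFP (12.5%), 15 for YFP versus DP (8.15%), 1 (Col14a1) for DP versus DN (14.1%) and 13 for YFP versus DN (9.84%). That set holds 1 YFP and 1 DN library, which are assumed to vary like the others. The causes were not tested. For these 5 comparisons, leaving out single libraries gave 0 to 0 calls. The mean share of collagen counts then ran from 0.0561% to 0.0719% in GFP, 0.218% to 0.545% in DP, 0.131% to 0.467% in YFP and 0.251% to 0.362% in DN.

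Directions changed for 3 of the 14 genes. For DP versus GFP, Col18a1 was at -0.67 within numbers 1 and 2, at -0.14 without the 5 libraries that went against their labels and at -0.61 (without DP replicate 4) to 2.64 without single libraries, and Col14a1 at -0.44 within numbers 3 to 6 and at -0.40 (without DP replicate 1) to 0.78 without single libraries (0.83 without the 5). For YFP versus GFP, Col18a1 was at -0.22 with voom, -0.13 with the replicate block, -0.55 within numbers 3 to 6 and -1.14 (without YFP replicate 1) to 1.23 without single libraries, Col4a2 was at -0.13 (without YFP replicate 1) to 1.95, and Col14a1 at 0.0534 within numbers 1 and 2. With the replicate block 0 collagen genes were called in each of the 6 comparisons, a count that was 0 without it and could not fall. The smallest adjusted p (edgeR) of any collagen gene rose from 0.0549 to 0.929 for DP versus GFP. For YFP versus GFP it rose from 0.126 to 0.396. The calls of Dcn, Mfap5, Pcolce and Sparc were lost. RLE scaling moved the median of all genes from 0.20 to 0.38 for DP versus GFP. The sets without the libraries numbered 5 and without YFP replicate 6 beside the other 4 were chosen after seeing the data. Depth limits single genes mostly in YFP replicate 6, with 283 collagen counts.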
